A study of Homo sapiens with 10 samples.

Results

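The Drosha-independent miRNAs described here are 8 mature miRNAs chosen by name: hsa-miR-320a, hsa-miR-320b, hsa-miR-320c, hsa-miR-320d, hsa-miR-484 and the mirtron arms hsa-miR-877-5p, hsa-miR-1226-3p and hsa-miR-1229-3p (the prefix for human is left out hereafter). They were measured by small RNA sequencing in 10 libraries of ES-2, an established human ovarian cancer cell line. They occupy 11 of the 2794 rows of the deposited table, because miR-320b, miR-320c and miR-320d each have a pair of genomic copies, whose rows were summed. After summing, the members are 8 of 2576 miRNAs, and all 8 reached a normalised read count of at least 1 in at least 2 libraries, as did 889 miRNAs in all. ES-2 cells had received an siRNA pool against IGF2BP1 (siIGF2BP1, 2 libraries), IGF2BP2 (siIGF2BP2, 3 libraries) or IGF2BP3 (siIGF2BP3, 3 libraries), or control siRNAs (siC, 2 libraries, named C2 and C3). No further allele or agent is named, and the labels give neither the time after transfection nor the remaining amount of each IGF2BP protein, which a miRNA table cannot show. No library was made from cells lacking Drosha, so the independence of these miRNAs from that enzyme is background and was not measured.

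Most miRNAs are cut from a long primary transcript by the nuclear enzyme Drosha, which works with DGCR8, and then from the resulting hairpin by Dicer. Some hairpins reach Dicer without Drosha. Mirtrons are short introns whose ends are made by splicing, whereas the miR-320a and miR-484 precursors are thought to be formed directly by transcription and, for mouse miR-320, to carry a cap. The IGF2BP proteins bind RNA in the cytoplasm and are best known for protecting their target mRNAs from decay.

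The mature sequences below are shown because the members fall into groups by their seed, the bases 2 to 8 that pair with targets, printed in capitals. They come from RefSeq on GRCh38.p14, in which 7 of the 8 members were matched by name. miR-320a is given by name only. miR-320b, miR-320c and miR-320d share 1 seed, and the other matched members each have a seed of their own.
miR-320b: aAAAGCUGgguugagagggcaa
miR-320c: aAAAGCUGgguugagagggu
miR-320d: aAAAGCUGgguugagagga
miR-484: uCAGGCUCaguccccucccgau
miR-877-5p: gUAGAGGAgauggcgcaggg
miR-1226-3p: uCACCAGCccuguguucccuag
miR-1229-3p: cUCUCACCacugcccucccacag
Counting from 1 at the 5′ end, miR-320b, miR-320c and miR-320d share their first 18 bases. From miR-320b to miR-320c the substitution is C20U, where miR-320c ends at 20 bases, and from miR-320b to miR-320d it is G19A, where miR-320d ends at 19 bases. Reads that end within the shared bases cannot be assigned to 1 of these relatives by sequence. Among miRNAs with a read, miR-4429 also carried the seed AAAGCUG, and miR-3155a and miR-3155b carried the seed of miR-484.

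The 3 mirtron members come from introns that are hairpins from end to end. Each hairpin is printed whole, because its first 2 and last 2 bases, in capitals, are the GU and AG of a spliced intron.
MIR877: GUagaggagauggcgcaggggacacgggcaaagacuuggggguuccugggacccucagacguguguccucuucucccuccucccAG
MIR1226: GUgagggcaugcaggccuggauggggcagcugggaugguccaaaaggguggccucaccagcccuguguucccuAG
MIR1229: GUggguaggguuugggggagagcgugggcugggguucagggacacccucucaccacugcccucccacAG
In GENCODE 29 each hairpin coincides base for base with an annotated intron. MIR877 is 86 bases long and lies at chr6:30584332-30584417 (plus strand), between exons 13 and 14 of ABCF1, which encodes a translation factor. MIR1226 is 75 bases long and lies at chr3:47849555-47849629 (plus strand), between exons 21 and 22 of DHX30, which encodes an RNA helicase. MIR1229 is 69 bases long and lies at chr5:179798278-179798346 (minus strand), between exons 13 and 14 of MGAT4B, which encodes a glycosyltransferase. The member miR-877-5p starts at the first base of its intron, and miR-1226-3p and miR-1229-3p end at the last base of theirs. Of 1562 human hairpins in the RefSeq table, 36 (2.30%) begin with GU and end with AG, and 23 (1.47%) coincide with an annotated intron.

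The remaining loci differ in their surroundings. MIR484 (chr16:15643294-15643372, plus strand) lies in an exon of NDE1 on the same strand and starts 27 bases after the start of an annotated NDE1 transcript. MIR320B2 lies in an intron of NVL on the same strand, while MIR320C1 and MIR320C2 lie antisense within introns of ABHD3 and OSBPL1A. MIR320B1, MIR320D1 and MIR320D2 overlap no other annotated transcript.

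The libraries held 462724 to 1269743 recovered miRNA reads each, and 1 read was worth 0.803 to 2.0 normalised read counts. A count of 0 allows up to 3 reads, that is 2.41 to 5.99 normalised read counts depending on the library, for counting error only. The siIGF2BP1 and siC libraries carry the source name ES-2, whereas the siIGF2BP2 and siIGF2BP3 libraries carry a different source name. The comparisons of siIGF2BP2 and of siIGF2BP3 with siC therefore cross that division, and its effect cannot be told apart from that of the siRNA. The 3 comparisons with siC also share the same control libraries. The labels do not state whether replicate libraries were grown as separate cultures, and p-values cover no more than the spread among the libraries sequenced, possibly technical.

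A single member, miR-320a, carried most of the signal. By mean normalised read count over the 10 libraries, miR-320a ranked 22 among all miRNAs, miR-484 ranked 62 and miR-320b ranked 133. The others ranked lower: 296 for miR-877-5p, 324 for miR-320c, 366 for miR-320d, 477 for miR-1229-3p and 535 for miR-1226-3p. In all 4 groups the order miR-320a, miR-484, miR-320b held at the top, with no overlap between neighbouring members. Below miR-320b the values of neighbours overlapped in at least some groups, and in siIGF2BP3 and siC every neighbouring pair from the fourth member down overlapped.

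**Figure D1:**
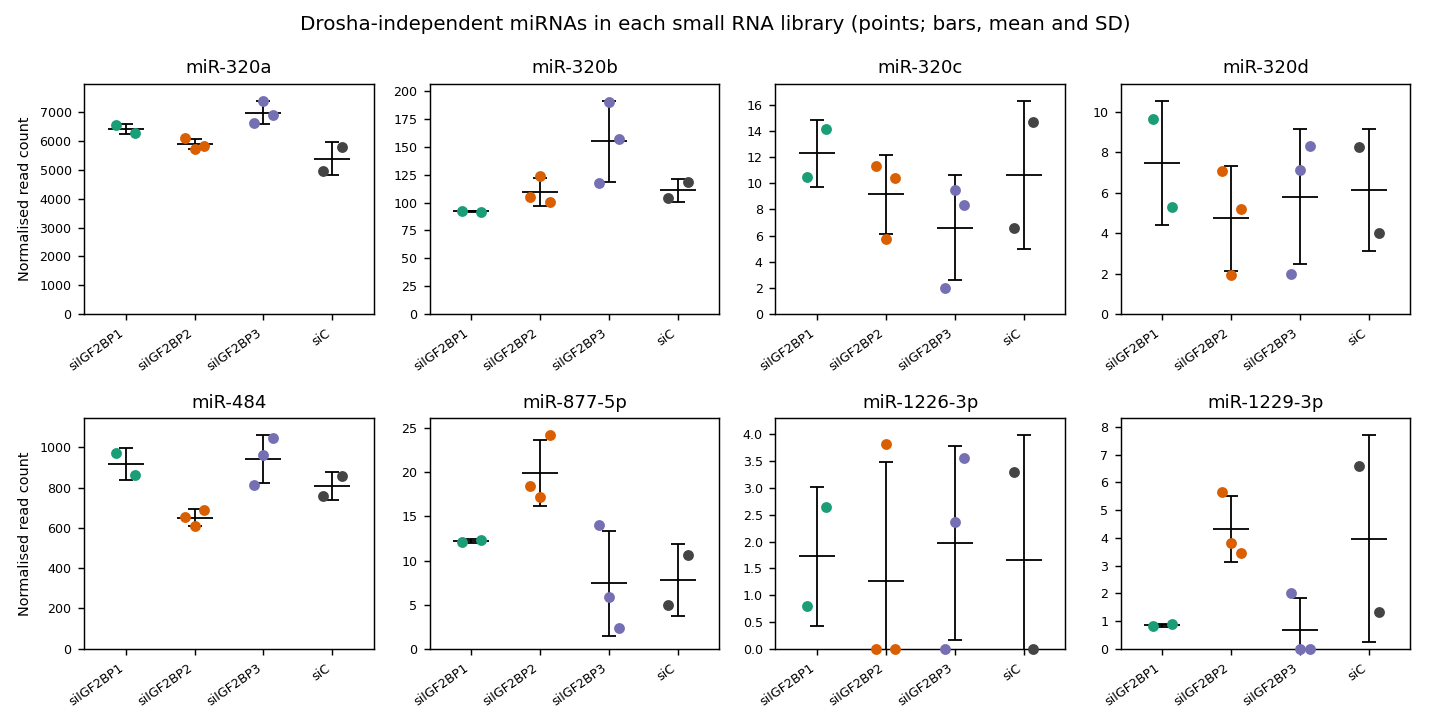
Normalised read count (vertical axes, linear, each from 0) of the 8 members in the siIGF2BP1, siIGF2BP2, siIGF2BP3 and siC libraries; points are libraries, long bars means and short bars SD, cut at 0. miR-320a lies between 4978 and 7405 in every library, whereas miR-1226-3p and miR-1229-3p are at 0 in some libraries.

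Together the 8 members made up 0.752% ± 0.00209 of the recovered reads in siIGF2BP1 (SD, n = 2), 0.698% ± 0.00948 in siIGF2BP2 (n = 3), 0.867% ± 0.0403 in siIGF2BP3 (n = 3) and 0.670% ± 0.0375 in siC (n = 2). miR-320a to miR-320d supplied 0.658% in siIGF2BP1, 0.628% in siIGF2BP2, 0.765% in siIGF2BP3 and 0.583% in siC. The share of the 3 mirtron arms was 0.00149% in siIGF2BP1, 0.00266% in siIGF2BP2, 0.00108% in siIGF2BP3 and 0.00143% in siC. These shares are descriptions and were not tested as a sum.

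**Figure D2:**
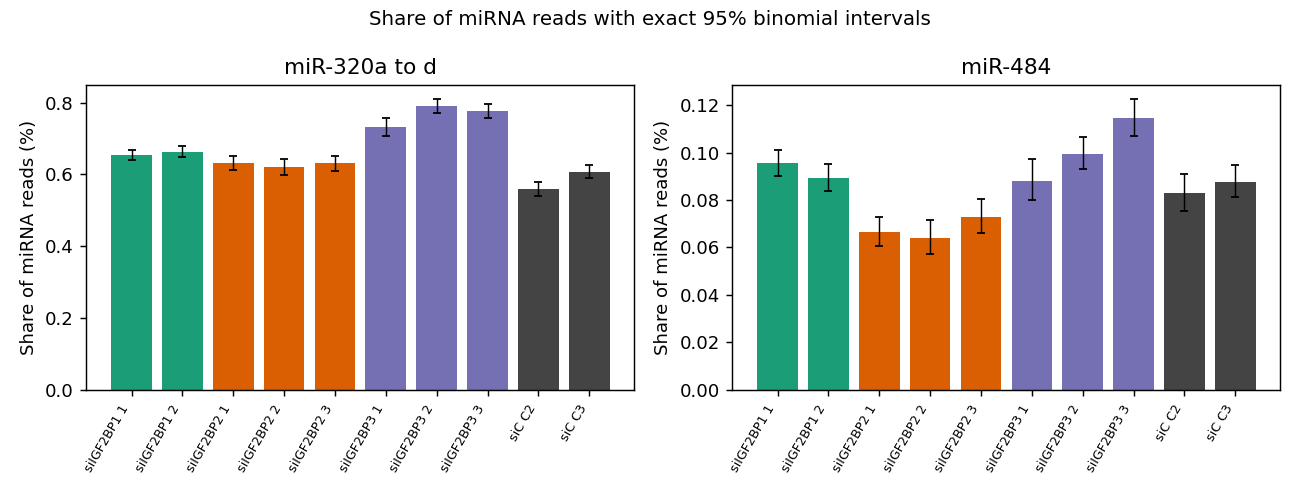
Share of the recovered miRNA reads (percent, vertical axes from 0) of miR-320a to miR-320d summed and of miR-484 in each library; error bars are exact Clopper-Pearson 95% intervals, which cover counting error only. The miR-320 shares of the siIGF2BP3 libraries, 0.731% to 0.789%, lie above those of all other libraries, and the miR-484 shares of the siIGF2BP2 libraries lie below those of all others.

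miR-320a, the most abundant relative of its family, was higher in siIGF2BP3 than in siC, and this was the only member called in any comparison with siC by the limma test used throughout. Its normalised read count was 6626, 7405 and 6923 in siIGF2BP3, against 4978 and 5790 in siC. Every siIGF2BP3 library was above both siC libraries. The groups carry different source names, whose effect cannot be told apart from that of the siRNA. On the log2(value + 1) scale the difference was 0.38 ± 0.10 (SE), with a Benjamini-Hochberg adjusted p of 0.0264 over 889 miRNAs. Of all miRNAs tested, 1.91% were called higher in this comparison and 8.66% lower, 10.6% in either direction, and 1 of the 8 members was called. The median difference of the 301 canonical miRNAs whose mean reached 10 was 0.07, so miR-320a lay 0.30 above it. Canonical here means outside the member and comparison lists, and their need of Drosha was not checked. The call was lost on recovered reads with edgeR (0.27, adjusted p 0.0608) and was made by DESeq2 (0.27, adjusted p 0.0300). In limma it was lost with TMM scaling (0.30, adjusted p 0.112) and median-of-ratios scaling (0.27, adjusted p 0.0884). The limma fit of these groups alone did not make it either (0.38, adjusted p 0.0946). It was also lost without siC C2 (0.27, adjusted p 0.181) and without siIGF2BP3 replicate 2 (0.34, adjusted p 0.0775). The authors' deposited table gives a log2 fold change of 0.38 for miR-320a in this comparison and a false discovery rate of 0.202.

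The other members did not pass the test in siIGF2BP3 against siC. miR-320b had 117.7, 190.5 and 157 normalised read counts in siIGF2BP3, against 104 and 118.4 in siC, so the groups overlapped. Its difference was 0.45 ± 0.21 (limma adjusted p 0.249). The group means of miR-484 were 941 ± 118 in siIGF2BP3 and 807 ± 70.7 in siC (SD, n = 3 and 2), a difference of 0.22 ± 0.14 (limma adjusted p 0.432). For miR-877-5p the means were 7.42 ± 5.94 in siIGF2BP3 and 7.80 ± 4.03 in siC. In this comparison 1 of the 8 members had groups that did not overlap, with higher values in siIGF2BP3, against 11.2% of all miRNAs tested.

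miR-484, whose locus lies in an exon of NDE1, was lower in siIGF2BP2 than in siIGF2BP3. It had 656, 607 and 691 normalised read counts in siIGF2BP2, against 814, 961 and 1048 in siIGF2BP3. No values overlapped, and the highest siIGF2BP2 library was below the lowest siIGF2BP3 library. The difference was -0.52 ± 0.12 on the log2 scale (limma adjusted p 0.0354). It was also called on recovered reads by edgeR (-0.48, adjusted p 0.0265) and DESeq2 (-0.49, adjusted p 0.00247). In limma the call was lost without a filter (adjusted p 0.0517) and with upper-quartile scaling (adjusted p 0.0523). A block for replicate number also removed it (limma adjusted p 0.171). Of all miRNAs, 3.15% were called in this comparison, 1.69% higher and 1.46% lower, against 1 of the 8 members. These 2 groups share a source name. The limma call was lost when any 1 library other than siIGF2BP3 replicate 1 was left out, with adjusted p up to 0.143, while the difference stayed between -0.62 and -0.44.

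Further members lay apart between siIGF2BP2 and siIGF2BP3 without passing the adjusted threshold. miR-320a had 6106, 5743 and 5850 normalised read counts in siIGF2BP2, all below the siIGF2BP3 values given above, and differed by -0.24 ± 0.09 (limma adjusted p 0.194). miR-877-5p had 18.4, 17.2 and 24.2 in siIGF2BP2, against 13.97, 5.92 and 2.38 in siIGF2BP3, without overlap. Its difference was 1.56 ± 0.50 (limma adjusted p 0.139), and it rests on 13, 9 and 14 reads in siIGF2BP2 against 7, 5 and 2 reads in siIGF2BP3. Without siIGF2BP3 replicate 1, which had the fewest reads of all libraries, the difference became 2.10 with a limma adjusted p of 0.0472. It was 1.03 without siIGF2BP3 replicate 3 (limma adjusted p 0.325), and no other library left out gave a call. Of the 8 members, 2 were higher and 2 lower in siIGF2BP2 with no overlap between groups, against 7.31% and 7.99% of all miRNAs. The higher members and the next count include miR-1229-3p, with 4, 2 and 2 reads in siIGF2BP2 against 1, 0 and 0 in siIGF2BP3. At an unadjusted p under 0.05 there were 5 of the 8 members, against 13.8% of all miRNAs, and of these miR-320b differed by -0.48 ± 0.19 with overlapping groups.

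In siIGF2BP2 against siC, 0 of the 8 members were called by limma, edgeR or DESeq2, and 2 had an unadjusted limma p under 0.05, as did 17.9% of all miRNAs. miR-320d, miR-1226-3p and miR-1229-3p did not pass the filter of edgeR and were not tested by it. Among all miRNAs limma called 1.24% higher and 7.76% lower, 9% in either direction. The members with a low unadjusted p were miR-484 and miR-877-5p. miR-484 had 656, 607 and 691 normalised read counts in siIGF2BP2, against 757 and 857 in siC, a difference of -0.31 ± 0.14 (limma adjusted p 0.256). miR-877-5p had 18.4, 17.2 and 24.2 in siIGF2BP2, against 4.95 and 10.6 in siC, where it rests on 3 and 8 reads, and differed by 1.31 ± 0.56 (limma adjusted p 0.224). This difference was 0.83 without siC C2 and 1.80 without siC C3. Neither pair of groups overlapped, which gave 1 member higher and 1 lower, against 10.7% and 16.1% of all miRNAs. miR-320b had 104.7, 124 and 100.1 in siIGF2BP2, which overlapped the siC values given above. miR-320a differed by 0.14 ± 0.10 (limma adjusted p 0.585) and miR-320b by -0.02 ± 0.21 (limma adjusted p 0.994).

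In siIGF2BP1 against siC, where both groups also carry 1 source name, 0 of the 8 members were called by limma, edgeR or DESeq2. For miR-320d, miR-1226-3p and miR-1229-3p, edgeR made no test and DESeq2 gave no adjusted p. Of the members, miR-320a alone had an unadjusted limma p under 0.05, as did 13.7% of all miRNAs. Limma called 2.47% of all miRNAs, 2.14% higher and 0.337% lower. miR-320a had 6553 and 6288 normalised read counts in siIGF2BP1, against 4978 and 5790 in siC, with no overlap. The difference of 0.26 ± 0.11 (limma adjusted p 0.276) stood beside a median of 0.16 over the 301 canonical miRNAs. With TMM scaling that median was -0.04 and the difference of miR-320a was 0.05, so its distance above the median was 0.10 as deposited and 0.09 with TMM. edgeR on the recovered reads gave a difference close to 0, at -0.0028.

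The remaining members in siIGF2BP1 also stayed short of the threshold. miR-320b had 92.4 and 91.7 normalised read counts in siIGF2BP1, against 104 and 118 in siC, a difference of -0.27 ± 0.23 (limma adjusted p 0.758). miR-484 had 974 and 862 in siIGF2BP1, against 757 and 857 in siC, a difference of 0.19 ± 0.15 (limma adjusted p 0.739) that was -0.02 with TMM scaling. miR-877-5p had 12.1 and 12.3 in siIGF2BP1, against 4.95 and 10.6 in siC (0.66 ± 0.61, limma adjusted p 0.760), and the difference was 0.18 without siC C2 and 1.15 without siC C3. Groups did not overlap for 3 members with higher values in siIGF2BP1 and 2 with lower values, against 23.1% and 11.9% of all miRNAs. miR-1229-3p is 1 of the lower members, with 1 and 1 reads in siIGF2BP1 against 4 and 1 in siC. Its separation from siC C3 rests on the depth scaling alone.

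**Figure D3:**
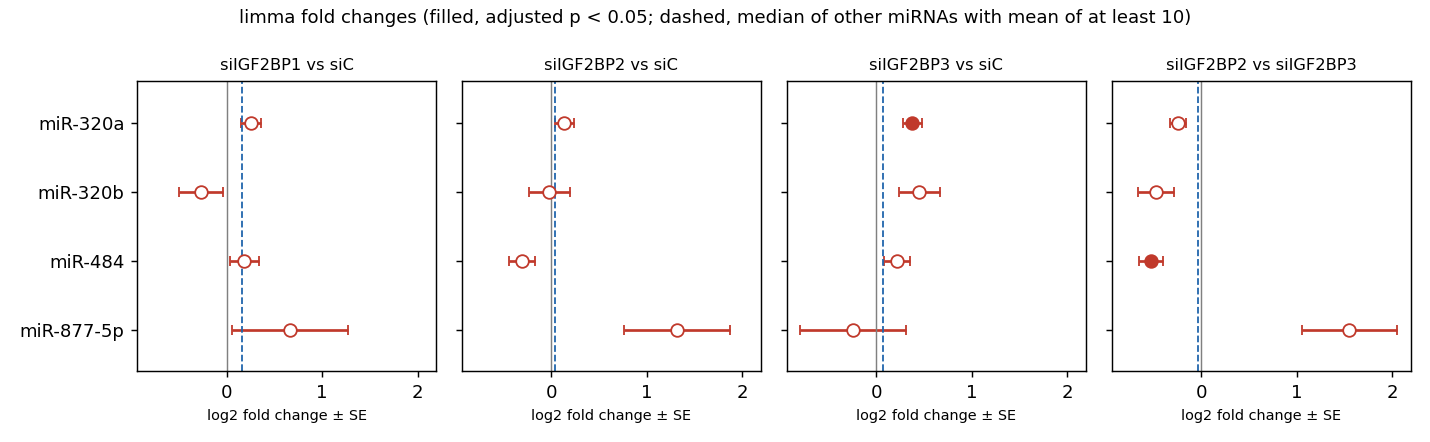
limma log2 fold changes with SE (horizontal axes) of the 4 members with a mean of at least 10 in the 4 comparisons; filled points have an adjusted p under 0.05 and the dashed line is the median of the canonical miRNAs with a mean of at least 10. The filled points are miR-320a in siIGF2BP3 vs siC at 0.38 and miR-484 in siIGF2BP2 vs siIGF2BP3 at -0.52.

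Over all 8 members the median difference was 0.26 in siIGF2BP1 against siC, -0.09 in siIGF2BP2 against siC, 0.03 in siIGF2BP3 against siC and -0.23 in siIGF2BP2 against siIGF2BP3. The corresponding medians over all 889 miRNAs were 0.10, -0.03, 0 and 0. Over the 313 miRNAs with a mean of at least 10 they were 0.16, 0.04, 0.08 and -0.04. The member medians include miR-320c, miR-320d, miR-1226-3p and miR-1229-3p, whose means were below 10 and whose differences rest on few reads. In siIGF2BP3 against siC the other members differed by 0.38 (miR-320a), 0.45 (miR-320b), 0.22 (miR-484) and -0.24 (miR-877-5p). The members did not share 1 direction in any of these comparisons.

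The balance between members differed between libraries. How far reads of the abundant miR-320a were counted as miR-320b was not examined, which limits the miR-320b shares below. miR-320b made up 1.39% and 1.43% of the reads of miR-320a to miR-320d in siIGF2BP1, against 2.04% and 1.998% in siC. The groups did not overlap, but a two-sided exact permutation test of 2 against 2 libraries cannot give less than the p of 0.333 found here (0.640 after adjustment over 8 tests). It was 1.68%, 2.11% and 1.68% in siIGF2BP2 and 1.75%, 2.50% and 2.21% in siIGF2BP3. The ratio of miR-320a to miR-484 was 9.30, 9.46 and 8.47 in siIGF2BP2, against 8.14, 7.71 and 6.61 in siIGF2BP3, without overlap (exact permutation p 0.1, the smallest that 3 against 3 can give, and 0.533 adjusted). The siC libraries had ratios of 6.58 and 6.76, below every siIGF2BP2 library (exact permutation p 0.200, again the smallest possible, and 0.533 adjusted).

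The low members of the miR-320 family were near the depth limit. miR-320c had 2.0 to 14.6 normalised read counts and miR-320d 1.91 to 9.64 across the 10 libraries, with overlapping groups in each comparison. The deposited rows of the 2 genomic copies held similar numbers of reads over all libraries, with 457 and 463 for miR-320b, 34 and 43 for miR-320c and 25 and 24 for miR-320d. Both copies have the same mature sequence, so these numbers do not show the output of each locus. miR-320e, a relative with a seed shifted by 1 base, had 10 reads over all libraries.

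The mirtrons differed in which arm was recovered. miR-877 gave 90 reads of its 5p arm, the member, and 1 read of its 3p arm over the 10 libraries. miR-1226 gave 60 reads of its 5p arm, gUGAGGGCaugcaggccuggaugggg, and 13 reads of its 3p arm, the member, so that the 5p arm held 82.2% of the reads (exact 95% interval 71.5% to 90.2%, for counting error in the pooled reads only). miR-1229 gave 0 reads of its 5p arm and 16 of its 3p arm, the member. The 5p arm held 80% of the miR-1226 reads in siIGF2BP1, 90.5% in siIGF2BP2, 76.2% in siIGF2BP3 and 81.8% in siC. These shares rest on 20, 21, 21 and 11 reads and were not tested.

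**Figure D4:**
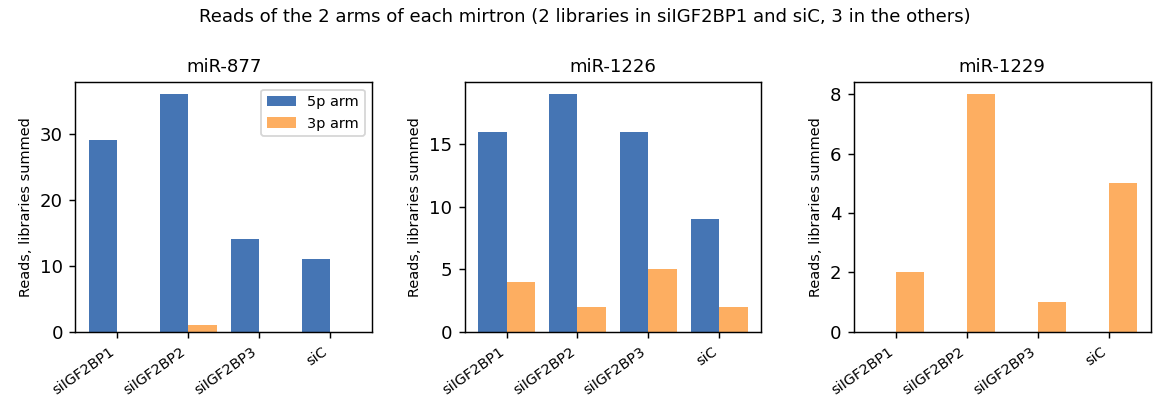
Recovered reads (vertical axes from 0) of the 5p and 3p arms of miR-877, miR-1226 and miR-1229 in each group, summed over 2 libraries in siIGF2BP1 and siC and 3 in siIGF2BP2 and siIGF2BP3 without correction for depth. miR-877 and miR-1226 gave more 5p than 3p reads in every group, and miR-1229 gave 3p reads only.

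miR-1226-3p had 1 and 3 reads in siIGF2BP1, 0, 2 and 0 in siIGF2BP2, 0, 2 and 3 in siIGF2BP3 and 2 and 0 in siC. miR-1229-3p had 1 and 1 reads in siIGF2BP1, 4, 2 and 2 in siIGF2BP2, 1, 0 and 0 in siIGF2BP3 and 4 and 1 in siC. At this depth no fold change is given for either. Arms of intron hairpins had a read and passed the filter about as often as all miRNAs, but a smaller share reached a mean of 10. The 23 hairpins that coincide with an annotated intron have 40 arms in the table, of which 19 had a read, 14 passed the filter and 1, miR-877-5p, had a mean of at least 10. Of all 2576 miRNAs, 1196 had a read, 889 passed the filter and 313 had a mean of at least 10. The most abundant of these arms outside the 3 member hairpins was miR-3620-3p, from an intron of ARF1, with 11 reads over all libraries.

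Other non-canonical miRNAs were compared as background. Of 20 listed arms of other mirtrons, 18 were in the table, 8 had a read and 6 were tested, and 0 of these were called by limma in any comparison, with 1 at an unadjusted p under 0.05 in siIGF2BP2 against siIGF2BP3 and none in the others. By mean normalised read count the highest were miR-1237-3p, miR-1234-3p, miR-1231 and miR-1227-3p, with 7, 4, 4 and 2 reads over all libraries. Of 10 tested miRNAs that overlap small nucleolar RNAs, 0 were called by limma, with 1 at an unadjusted p under 0.05 in siIGF2BP1 and in siIGF2BP3 against siC. The most abundant was miR-1291, with a mean of 3017 normalised read counts and values from 420 to 7340, followed by miR-3607-3p (114), miR-3607-5p (75.6) and miR-3651 (51.4). miR-451a, which needs Drosha but not Dicer, had 7.23 and 213 normalised read counts in siIGF2BP1, at most 1.91 in siIGF2BP2, at most 2.38 in siIGF2BP3, and 67.6 and 660 in siC. limma called it lower in siIGF2BP2 (adjusted p 0.00165) and in siIGF2BP3 (adjusted p 0.00259) than in siC, the comparisons that also cross the source names.

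Across the 10 libraries, the patterns most like that of miR-320a were those of miR-199a-3p, miR-199b-3p and miR-27a-5p. Likeness was measured as the root mean square difference of log2(value + 1) after centring each miRNA, among 146 other miRNAs with a mean of at least 100. It was 0.0783, 0.1002 and 0.1040 for these 3, against a median of 0.285. For miR-484 the nearest were miR-25-3p (0.153), miR-744-5p (0.165) and miR-548k (0.168), against a median of 0.340. In siIGF2BP3 against siC, miR-199a-3p, miR-199b-3p and miR-27a-5p differed by 0.37, 0.34 and 0.47 (limma adjusted p 0.054, 0.128 and 0.106). In siIGF2BP2 against siIGF2BP3, miR-25-3p was called lower, at -0.56 (limma adjusted p 0.0172). There miR-744-5p differed by -0.32 and miR-548k by -0.23 (limma adjusted p 0.201 and 0.47). The likenesses are descriptions over libraries that share depth and scaling.

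**Figure D5:**
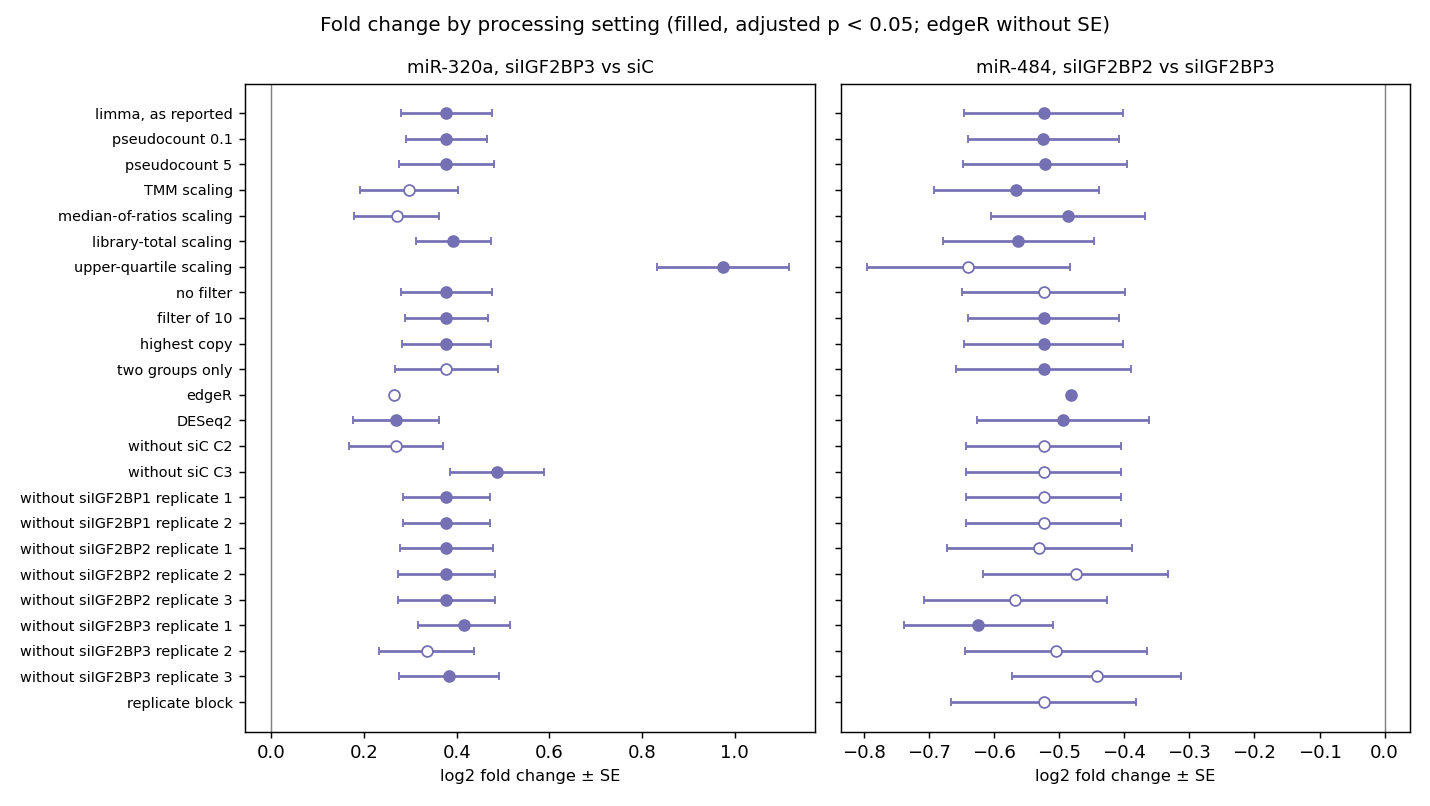
log2 fold change with SE (horizontal axes) of miR-320a in siIGF2BP3 vs siC and of miR-484 in siIGF2BP2 vs siIGF2BP3 under each processing setting; filled points have an adjusted p under 0.05, and edgeR is drawn without SE. The miR-320a values lie between 0.27 and 0.97 and the miR-484 values between -0.64 and -0.44, and neither changes sign.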

How the data were processed

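The submitters' processing notes name the build hg19, edgeR 3.12, featureCounts 1.4.6, Bowtie2 2.2.4 and cutadapt 1.6. Their settings, the annotation release and the scaling were not given in the sources used here. For each mature miRNA and library the authors deposited a normalised signal, with log2 fold changes, p-values and false discovery rates of each knockdown against siC. All values were whole multiples of 1 read within a tolerance of 0.01 reads, from which reads were recovered. The log2 values in the authors' table run as knockdown over siC. The siC columns could not be tied to single samples. The members and comparison lists were chosen with earlier results of these data known; named miRNAs are all members, up to 4 of each list by mean, any called, and the 3 nearest patterns.

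Because the values were not counts, limma 3.58.1 (R 4.3.3) was fitted with an intensity trend on log2(value + 1), which understates changes of low miRNAs. Of 2576 miRNAs, 889 reached a value of 1 in 2 or more libraries and entered 1 fit over 4 groups, with Benjamini-Hochberg adjustment at 0.05. Fold changes are given for members with a mean of at least 10. edgeR 4.0.16 (quasi-likelihood, TMM) and DESeq2 1.42.0 were run on the recovered reads. Other alternatives were pseudocounts, scalings, filters, the highest copy in place of the sum, fits of the compared groups alone, each library left out and a replicate block. Ratios were set against each other by exact permutation tests, two-sided, in scipy 1.17.1, and shares have exact Clopper-Pearson 95% intervals. limma and edgeR were checked on simulated counts with the same spread for every miRNA and changes larger than the called member differences. That check therefore does not cover differences as small as those. Hairpins were set against GENCODE 29 on GRCh38, and no coordinate of hg19 is used. In total 0 columns of other samples were present.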

Additional observations from a re-analysis of the deposited data

How the results depend on the processing

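Of 356 recomputed member differences, 318 kept their direction and side of the threshold, 18 were no longer past it, 5 newly passed it and 15 changed sign. The number of members called was 0 in siIGF2BP1 against siC under each setting. In siIGF2BP2 against siC it was 2 with upper-quartile scaling. In siIGF2BP3 against siC it was 3 with upper-quartile scaling and 0 with TMM scaling, median-of-ratios scaling, the fit of these groups alone and edgeR, and leaving out 1 library gave 0 to 1. In siIGF2BP2 against siIGF2BP3 it was 0 with upper-quartile scaling and without a filter, and leaving out 1 library gave 0 to 2. Upper-quartile scaling moved the median of the canonical miRNAs to 0.52 in siIGF2BP2 and 0.67 in siIGF2BP3 against siC, and the members moved with it. Taking the highest copy gave a member share of 0.746% in siIGF2BP1. Where 1 siIGF2BP1 or siC library was left out, the lone library was assumed to vary like the other groups. The cause of these changes was not tested.

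Sign changes concerned differences that no setting called. In siIGF2BP1 against siC, miR-320a was -0.0028 with edgeR, and miR-484 was -0.019 with TMM, -0.048 with median-of-ratios and -0.030 with upper-quartile scaling, -0.071 with edgeR and -0.047 with DESeq2. In siIGF2BP2 against siC, miR-320b was 0.45 with upper-quartile scaling, 0.010 with the highest copy and -0.12 to 0.071 when 1 library was left out, and miR-484 was 0.17 with upper-quartile scaling. In siIGF2BP3 against siC, miR-877-5p was 0.27 with upper-quartile scaling and -0.78 to 0.29 when 1 library was left out.

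No pairing of siIGF2BP2 and siIGF2BP3 libraries by replicate number was visible: same-numbered deviations correlated at -0.12, -0.16 and -0.04 over 313 miRNAs. Deviations from the means of 3 libraries cannot exclude such pairing. With the replicate block 0 members were called, and 5 miRNAs in all against 28 without it. miR-484 then differed by -0.52 (limma adjusted p 0.171). No paired analysis was possible because the numbers 2 and 3 in the names of the siC columns could not be tied to the labels' replicate numbers, for the comparisons with siC. Depth limits the mirtrons and miR-320c and miR-320d, whose group values rest on 1 to 36 reads.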
